A study of Rattus norvegicus and Bos taurus with 6 samples.

Results

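Prox1, Foxp2, Foxp1, Mmrn1, Reln, Pde1c and Pdpn, 7 genes known from lymphatic endothelium or read beside it, were followed through 6 single-nucleus RNA-seq libraries of adipose tissue. The genes were found by symbol in every library, which makes 7 of the 25629 genes listed for the 10x Genomics library, 7 of 38697 for each rat Parse library and 7 of 36075 for the cow library. They were selected on these data, Foxp2 because its level was several-fold higher in thoracic aortic perivascular adipose tissue (taPVAT) than in brown adipose tissue (BAT), so that difference is given here as a description, and the question asked was which nuclei carried Foxp2. Ptprb, a receptor tyrosine phosphatase of endothelial cells, was read beside the members as a mark of endothelial nuclei.

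The study tested a protocol for isolating nuclei from white fat, with taPVAT as a reference tissue. Mesenteric perivascular adipose tissue (mesPVAT) of the rat was sequenced once with the 10x 3′ v3 kit (batch 1) and once with Parse Evercode WT v3 (batch 2), and the second kit was also used for retroperitoneal (RP) fat, subscapular BAT and taPVAT of the rat and for subcutaneous flank WAT of the cow. All rats were male SS/HsdMcwiCrl animals (Dahl SS rats) housed at 22 °C, and the cow tissue came from lactating female Holstein cattle. All tissue was snap frozen and labelled normal, with no treatment or transgene, and neither ages nor whether a library pools animals are given in the sources used here. Each condition was 1 library, so no difference between conditions could be tested, and every interval below is an exact 95% interval that covers counting error only: Poisson for levels, binomial for shares and conditional binomial for ratios. A level is the number of unique molecular identifiers (UMIs) of a gene summed over nuclei per 1000000 UMIs of the library or class (CPM), and a nucleus is positive for a gene with at least 1 UMI of it.

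The libraries held 2297 to 5887 nuclei and 845316 to 16827260 UMIs, with median UMIs per nucleus of 161 in the 10x Genomics library, 346 in the library labelled mesPVAT, 213 in that labelled RP fat, 3530 in cow WAT, 1706 in BAT and 1246 in taPVAT. No barcode was shared by libraries in any of the 15 pairs. Plin1, which encodes the lipid droplet protein perilipin 1, was read in all libraries, and Ucp1, the uncoupling protein of brown fat, stood at 1782 CPM in taPVAT and 2072 CPM in BAT, against 63.4 and 89.9 CPM in the Parse libraries labelled mesPVAT and RP fat. The study's text gives RP fat a higher median of genes per nucleus than mesPVAT. In the deposited data the library labelled mesPVAT had the higher median, 304 genes, and that labelled RP fat had 197. The labels may thus be exchanged, so that the library labelled mesPVAT may be RP fat and the reverse. Both libraries are called by their labels throughout, and what is said of either holds for the label only.

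Lymphatic endothelial cells line the vessels that drain fluid, lipid and immune cells from tissue, and they arise largely from venous endothelium under the transcription factor PROX1, which also keeps their identity in the adult. Fat depots around vessels carry such vessels among adipocytes, blood capillaries and stromal cells. FOXP2 and FOXP1 are forkhead transcription factors, MMRN1 (multimerin 1) and RELN (reelin) are secreted proteins that lymphatic endothelium makes, PDE1C is a phosphodiesterase activated by calcium and calmodulin, and PDPN (podoplanin) is a membrane glycoprotein of lymphatic endothelium, mesothelium and some stromal cells and macrophages.

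In the rat genome build GRCr8, 5 of the 7 members lie on chromosome 4. Foxp2 spans chr4:44099848-44677700 and Foxp1 chr4:133117346-133808647, and both are long genes, of 578 and 691 kb. Reln spans chr4:13628440-14055201, Pde1c chr4:86629074-87108147 and Mmrn1 chr4:91205462-91280862, while Prox1 lies at chr13:104196615-104251007 and Pdpn at chr5:160884995-160919112.

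Promoter windows, 250 bases before to 50 after an annotated transcript start, were listed by RefSeq on GRCr8 for 5 members, and those of the genes read together with Prox1 below (Mmrn1, Reln) and of the Foxp2 paralog Foxp1 are shown, on the strand of the gene. Capitals mark the forkhead letters TGTTTAC, searched on both strands.
Foxp1, chr4:133353231-133353530, minus strand: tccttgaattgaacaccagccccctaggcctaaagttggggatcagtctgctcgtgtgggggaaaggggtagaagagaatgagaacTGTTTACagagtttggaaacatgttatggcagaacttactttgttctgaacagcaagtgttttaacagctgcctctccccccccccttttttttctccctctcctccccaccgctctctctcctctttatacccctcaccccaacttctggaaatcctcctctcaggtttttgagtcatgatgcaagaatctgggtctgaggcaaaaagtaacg
Mmrn1, chr4:91233166-91233465, plus strand: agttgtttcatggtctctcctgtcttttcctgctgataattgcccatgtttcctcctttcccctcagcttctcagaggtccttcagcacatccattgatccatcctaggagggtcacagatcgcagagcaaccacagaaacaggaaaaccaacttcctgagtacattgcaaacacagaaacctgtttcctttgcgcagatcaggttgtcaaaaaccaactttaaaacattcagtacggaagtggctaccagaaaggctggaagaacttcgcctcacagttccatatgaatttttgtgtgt
Reln, chr4:13628318-13628617, plus strand: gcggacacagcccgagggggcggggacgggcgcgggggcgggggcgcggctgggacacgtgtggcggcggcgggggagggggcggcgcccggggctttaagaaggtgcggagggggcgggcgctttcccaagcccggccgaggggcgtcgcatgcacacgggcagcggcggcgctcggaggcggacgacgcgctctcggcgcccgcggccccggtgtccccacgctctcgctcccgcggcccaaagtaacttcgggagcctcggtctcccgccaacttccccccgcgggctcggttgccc
The Foxp1 and Mmrn1 windows lie within the gene's span, at the start of a shorter transcript. TGTTTAC stood once in the Foxp1 window, at base 87, and in none of the windows of Mmrn1, Reln, Pde1c and Pdpn. These letters were in 1265 of 33469 rat promoter windows (3.78%). The Reln window had 79% G and C with 47 CpG, against a median of 51.67% over all windows, and the Foxp1 and Mmrn1 windows had 48.33% and 45%. These are matches of letters and do not show binding.

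Foxp2 was read in every library. Its level was 402 CPM in the 10x Genomics mesPVAT library (95% interval 367 to 439), 211 CPM (190 to 235) in the Parse library labelled mesPVAT, 219 CPM (189 to 253) in that labelled RP fat, 289 CPM (274 to 304) in taPVAT, 47.9 CPM (44.7 to 51.3) in cow WAT and 38.5 CPM (33.8 to 43.6) in BAT. Among the rat Parse libraries BAT was thus the low one, and the intervals of the libraries labelled mesPVAT and RP fat overlapped. As shares, 782 of 2708 taPVAT nuclei (28.9%), 193 of 2699 BAT nuclei (7.15%), 273 of 3028 nuclei labelled mesPVAT (9.02%) and 165 of 2805 labelled RP fat (5.88%) were positive. Shares rise with depth, and positive taPVAT nuclei had a median of 2362 UMIs against 958.5 in negative nuclei. After each nucleus was thinned to 200 UMIs the shares were 4.76% in taPVAT, 4.59% in the library labelled mesPVAT, 4.92% in that labelled RP fat and 0.667% in BAT, so at equal depth BAT was the low library and the other 3 lay close together. Shallower nuclei could not be thinned, which removed 476 of those labelled mesPVAT, 1302 of those labelled RP fat and 0 of taPVAT and BAT. The richest single nucleus held 22 Foxp2 UMIs in taPVAT, 5 in BAT, 30 in the 10x Genomics library, 18 and 3 in the libraries labelled mesPVAT and RP fat, and 15 in cow WAT.

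Prox1 was read at 208 CPM (184 to 236) in the 10x Genomics library and at 32.6 CPM in the library labelled mesPVAT, 98.2 CPM in that labelled RP fat, 22.7 CPM (18.8 to 27.3) in taPVAT, 9.81 CPM in cow WAT and 5.70 CPM (3.99 to 7.89) in BAT. Few nuclei carried it, with 47 of 2708 in taPVAT, 28 of 2699 in BAT and 152 of 5887 in the 10x Genomics library. Mmrn1 had the fewest UMIs of the members in each rat library, at 5.29 CPM in 22 taPVAT nuclei and 0.95 CPM in 6 BAT nuclei, and it ran from 11.3 to 20.2 CPM in the other libraries. Pdpn was at 113 CPM in the 10x Genomics library, 25.4 and 33.1 CPM in the libraries labelled mesPVAT and RP fat, 13.0 CPM in cow WAT, 8.82 CPM in taPVAT and 3.32 CPM in BAT. Reln and Pde1c showed another order. Reln stood at 142 and 211 CPM in the libraries labelled mesPVAT and RP fat, against 30.2 CPM in taPVAT, 19.5 CPM in BAT, 24.2 CPM in the 10x Genomics library and 56.3 CPM in cow WAT. Pde1c stood at 252 and 290 CPM in the first 2, 69.4 CPM in taPVAT, 111 CPM in BAT, 76.0 CPM in the 10x Genomics library and 311 CPM in cow WAT. Foxp1 was the member with the most even levels, between 275 and 409 CPM in the 4 rat Parse libraries, at 802 CPM in the 10x Genomics library and at 620 CPM in cow WAT. Kits, genome builds and species differ between these 3 kinds of library, so these levels are set side by side without a fold.

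**Figure D1:**
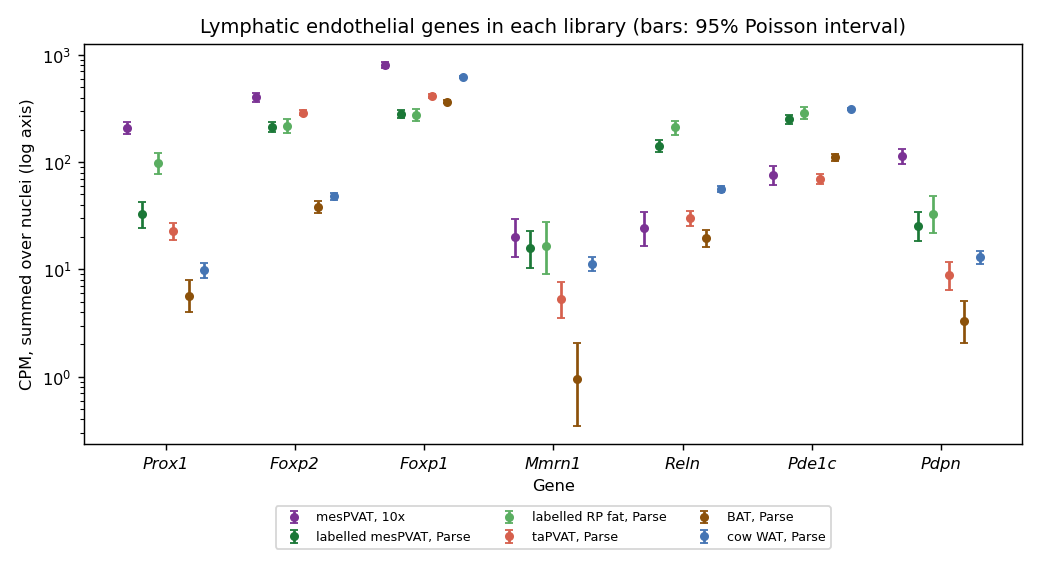
Level of each of the 7 members in the 6 libraries, in CPM on a log axis; points are libraries and bars are exact 95% Poisson intervals for counting error. Foxp2 in BAT, at 38.5 CPM, lies below the other rat Parse libraries, which run from 211 to 289 CPM.

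In taPVAT over BAT the ratio of Foxp2 levels was 7.51 (6.56 to 8.64), with 1474 against 243 UMIs. Prox1 was 3.99-fold (2.73 to 5.98), Mmrn1 5.57-fold (2.26 to 16.5) and Pdpn 2.65-fold (1.55 to 4.69) higher in taPVAT. Reln had a ratio of 1.55 (1.22 to 1.98) and Foxp1 of 1.12 (1.05 to 1.18), while Pde1c was 1.59-fold higher in BAT. Thus 4 of 7 members were at least 2-fold higher in taPVAT and 0 of 7 at least 2-fold lower, where 5.97% and 1.10% of the 18696 genes with 20 or more UMIs passed these limits; the members were selected with this contrast known, and nothing is read from the counts. The median ratio was 2.65 for the members and 1.08 for all those genes. Without the nuclei in which at least 2 lymphatic genes were found, the ratio of Foxp2 was 6.93 and that of Prox1 was 1.59. Prox1, but not Foxp2, was among the genes that picked these nuclei, so the fall of Prox1 is in part built in. Ptprb had a ratio of 0.811, so the endothelial mark was not itself higher in taPVAT. In the library labelled RP fat over taPVAT, 5 of 7 members (Prox1, Mmrn1, Reln, Pde1c, Pdpn) were at least 2-fold higher, but so were 46.0% of 18820 genes, and Foxp2 and Foxp1 had ratios of 0.757 and 0.671.

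The taPVAT and BAT nuclei were each loaded in 3 wells of the first barcoding round and sequenced as 2 sublibraries, which are technical splits of 1 sample. The 3 taPVAT wells gave Foxp2 levels of 347, 280 and 256 CPM and the 3 BAT wells 38.6, 40.6 and 34.8 CPM. The sublibraries gave 286 and 293 CPM in taPVAT and 39.2 and 37.7 CPM in BAT, so neither split overlapped between the tissues. Prox1 was less even, at 3.16 and 8.24 CPM in the BAT sublibraries and 22.4 and 23.2 CPM in those of taPVAT, which gives ratios of 7.06 and 2.81.

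To find the nuclei that carry these genes, each library was clustered alone without the 7 members, and clusters were named from other marker genes. In the 10x Genomics mesPVAT library 1 cluster was lymphatic-like, with 304 of 5084 clustered nuclei. Its leading genes were Fam174b, Glis3, Tll1, Dysf and Pcdh7. The lymphatic markers Pkhd1l1, Sema3d, Itga9, Tbx1, Sema3a, Klhl4 and Nfatc1 were higher in it than in the blood endothelial-like nuclei. Of the other markers, Flt4 gave only 4 UMIs in it, Ccl21 and Stab2 gave 0, and Lyve1 is not listed for this library. Foxp2 stood at 3288 CPM (2915 to 3695) there, with 54.3% of nuclei positive, against 234 CPM in blood endothelial-like, 211 CPM in adipose stem and progenitor (ASPC)-like and 54.3 CPM in adipocyte-like nuclei. The cluster thus held 77.7% of all Foxp2 UMIs of the clustered nuclei with 5.98% of these nuclei. At resolution 0.5 these nuclei were not separate, and a blood endothelial-like cluster of 477 nuclei held Foxp2 at 2362 CPM. Prox1 was at 1749 CPM (1480 to 2052) in the cluster and Pde1c at 688 CPM (524 to 887), with 59 UMIs. Foxp1 was at 1585 CPM against 1193 CPM in blood endothelial-like and 1228 CPM in immune-like nuclei, so it was not confined to endothelial classes. Mmrn1 (140 CPM) and Reln (128 CPM) were low in this shallow library, and their intervals in the cluster reached over the blood endothelial values of 93.6 and 164 CPM. Pdpn gave 1 UMI in the cluster.

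In taPVAT no cluster was lymphatic-like at the resolution used throughout, 1.0. Foxp2, Foxp1, Prox1, Reln and Mmrn1 peaked in a blood endothelial-like cluster of 75 nuclei led by Pkhd1l1, Vwf, Pgm5, Tll1 and Pcdh7, in which 5 lymphatic markers were raised, Foxp2 stood at 863 CPM (711 to 1039), Foxp1 at 825, Prox1 at 509, Reln at 247 and Mmrn1 at 116 CPM, the highest level of each over the 12 taPVAT clusters of 50 or more nuclei. At resolution 2.0 a lymphatic-like cluster of 25 nuclei separated, led by Pkhd1l1, Glis3, Tgfa, Slc4a10 and Flt4, the last the receptor of the lymphatic growth factor VEGFC. Foxp2 was at 2632 CPM (2137 to 3208) in these nuclei, with 18 of 25 positive, against 125 CPM (102 to 151) in the 510 blood endothelial-like nuclei. Prox1 was at 1692 CPM against 7.13, Reln at 806 against 16.6 and Mmrn1 at 403 against 2.38 CPM. Foxp1, by contrast, was at 457 CPM in lymphatic-like and 552 CPM in blood endothelial-like nuclei, and Pde1c at 215 and 199 CPM, so neither set these classes apart in taPVAT. Pdpn had 0 UMIs in the 25 nuclei, which allows up to 80.6 CPM by a limit of 3 counts. The lymphatic markers Pkhd1l1, Flt4, Sema3a, Sema3d and Itga9 were higher in the cluster than in blood endothelial-like nuclei. Lymphatic marker Lyve1 is not listed for the rat Parse libraries, and Ccl21 gave 3 UMIs in the cluster. Tbx1 and Klhl4 gave 4 UMIs each and Stab2 gave 1 UMI. Nfatc1, also on 4 UMIs, stood at 107 CPM, below the 138 CPM of blood endothelial-like nuclei.

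The Foxp2-rich lymphatic-like nuclei of taPVAT held 98 Foxp2 UMIs, which is 6.90% of the Foxp2 UMIs of the clustered nuclei. The other Foxp2 UMIs lay in other nuclei. Over the classes of resolution 1.0, which together hold all the Foxp2 UMIs and in which the lymphatic nuclei have no class of their own, 248 UMIs (17.5%) were in 265 ASPC-like nuclei, 453 (31.9%) in 634 adipocyte-like, 227 (16.0%) in 568 blood endothelial-like (112 of these in the cluster of 75 nuclei above), 105 (7.39%) in 347 immune-like and 59 (4.16%) in 190 pericyte or smooth muscle-like nuclei, and 328 (23.1%) in 633 nuclei without a name. As levels, ASPC-like nuclei stood at 523 CPM (460 to 593), with 44.9% positive, adipocyte-like at 326 CPM (297 to 358), with 43.2% positive, blood endothelial-like at 232, immune-like at 210 and pericyte or smooth muscle-like at 169 CPM. Plin1 stood at 3317 CPM in the unnamed nuclei, close to 3350 CPM in adipocyte-like nuclei, so the adipocyte-like share of 31.9% may be too low. No class was without Foxp2, and the ASPC-like level was above the adipocyte-like level with intervals that did not overlap.

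In BAT no cluster was lymphatic-like at resolution 0.5, 1.0 or 2.0. Among named classes Foxp2 was highest in the 128 ASPC-like nuclei, at 112 CPM (73.3 to 164) with 26 UMIs, and stood at 29.3 CPM (23.8 to 35.7) in 1325 adipocyte-like, 22.7 CPM in 578 blood endothelial-like, 38.2 CPM in immune-like, 33.0 CPM in pericyte or smooth muscle-like and 70.2 CPM in unnamed nuclei. An unnamed cluster of 238 nuclei, led by Atp8a2, Nkain3, Fzd1, Robo2 and Cntnap2, stood at 107 CPM. It also had the highest Prox1 level of BAT at resolution 1.0, 40.4 CPM, on 14 UMIs. At resolution 2.0 an unnamed cluster of 98 nuclei, led by Atp8a2, Dlgap2, Pdzrn4, Robo2 and Lrp1b, had 206 CPM of Foxp2 (128 to 315). Its Prox1 level was 98.1 CPM (47.0 to 180), on 10 UMIs in 4.08% of its nuclei, and Mmrn1 gave 0 UMIs. The richest BAT nucleus held 7 Prox1 UMIs and lay in both of these unnamed clusters, so their Prox1 levels rest largely on 1 nucleus. At resolution 2.0 the highest levels of both transcription factor genes in BAT lay in nuclei without a class. At resolution 1.0 the ASPC-like cluster had the highest Foxp2 level. The order of ASPC-like above adipocyte-like nuclei was thus found in both brown depots. Class by class, the taPVAT over BAT ratio of Foxp2 was 11.1 (8.93 to 14.0) in adipocyte-like, 10.3 (6.67 to 16.5) in blood endothelial-like, 5.51 (2.79 to 12.4) in immune-like, 5.12 (2.60 to 11.2) in pericyte or smooth muscle-like and 4.66 (3.11 to 7.28) in ASPC-like nuclei. The ratio was above 1 in every named class. Without the cluster of 75 nuclei with raised lymphatic markers, blood endothelial-like nuclei of taPVAT stood at 136 CPM, on 115 UMIs, and the ratio was 5.99 (3.81 to 9.83). Of these UMIs, 98 lay in a cluster of 187 nuclei with 2476 CPM of Plin1. The other 17 lay in a cluster of 306 nuclei, at 43.1 CPM of Foxp2. The BAT blood endothelial-like clusters ran from 16.3 to 28.0 CPM, so the ratio rests mainly on 1 taPVAT cluster rich in Plin1. Any UMIs from free RNA, which was not measured, would be counted in these class levels, and Foxp2 is set against an adipocyte gene below. Foxp1, the paralog, had ratios of 0.958 (0.854 to 1.07) in adipocyte-like and 1.02 in blood endothelial-like nuclei and 2.22 (1.68 to 2.99) in ASPC-like nuclei.

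**Figure D2:**
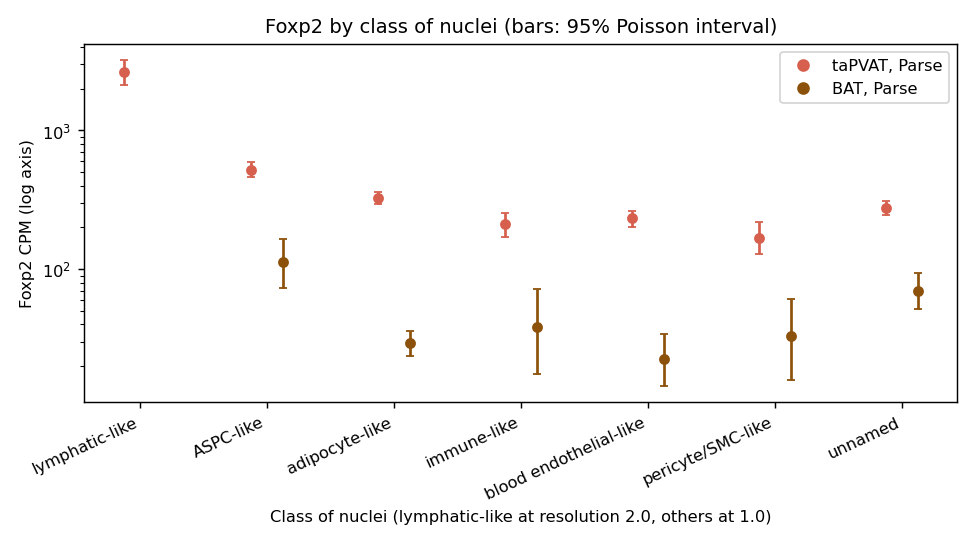
Foxp2 level by nuclear class in taPVAT and BAT, in CPM on a log axis, with exact 95% Poisson intervals for counting error. In taPVAT the 25 lymphatic-like nuclei, named at resolution 2.0, stand at 2632 CPM, and the ASPC-like nuclei lead the other named classes in both libraries, at 523 and 112 CPM.

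Free RNA from broken cells can give UMIs in nuclei that do not make a gene, and such RNA keeps its genes in 1 ratio in every class. Foxp2 was therefore set against Plin1, an adipocyte gene, in each taPVAT cluster. Adipocyte-like nuclei held 9.74 Foxp2 UMIs per 100 Plin1 UMIs (8.83 to 10.7), and the 2 blood endothelial-like clusters with few lymphatic markers held 8.74 (7.04 to 10.8) and 8.90 (5.08 to 14.6). Among these last, the cluster with 2476 CPM of Plin1 had 216 CPM of Foxp2 and the cluster with 484 CPM of Plin1 had 43.1 CPM, so both genes were lower together. The pericyte or smooth muscle-like clusters held 8.20 and 12.9, and the 3 immune-like clusters of 50 or more nuclei between 10.0 and 13.5 per 100. The 2 unnamed clusters of 50 or more nuclei held 10.1 and 6.30 (5.20 to 7.57), the last below the adipocyte interval. An immune-like cluster of 18 nuclei held 26.5 (13.2 to 49.7). All immune-like nuclei together held 13.7 (11.08 to 16.85), somewhat above the adipocyte interval. Foxp2 was well above the adipocyte ratio in several groups: ASPC-like nuclei held 46.9 (40.2 to 54.6), the endothelial cluster with the lymphatic nuclei 96.6 (73.8 to 126) and the lymphatic-like nuclei themselves 338 (221 to 531) Foxp2 UMIs per 100 Plin1 UMIs, and an unnamed cluster of 16 nuclei held 3 Foxp2 UMIs and 1 Plin1 UMI. Plin1 UMIs in blood endothelial-like and immune-like nuclei are counts of an adipocyte gene in other cells, and a Foxp2 level at the same ratio is not read as expression in those classes. Free RNA and doublets with adipocyte nuclei would both carry the 2 genes together, and neither was measured here. Adipocyte-like nuclei stood at 326 CPM of Foxp2, with 43.2% positive. The blood endothelial-like cluster with 484 CPM of Plin1 had 5.56% positive. Whether adipocyte nuclei make Foxp2 was not tested. In BAT the adipocyte-like clusters lay between 0.626 and 1.26 per 100, and all adipocyte-like nuclei together at 0.865 (0.703 to 1.05). Blood endothelial-like clusters lay between 1.90 (0.976 to 3.34) and 8.47 (2.65 to 20.9), on 3 to 12 Foxp2 UMIs each. Some of their intervals reached the adipocyte-like range, and together these nuclei held 2.76 (1.74 to 4.17). Immune-like nuclei held 2.63 (1.19 to 5.06), pericyte or smooth muscle-like 2.82 (1.34 to 5.24) and ASPC-like nuclei 8.81 (5.66 to 13.2). The named classes thus stood above the pooled adipocyte ratio, on 9 to 26 Foxp2 UMIs each, and the ASPC-like nuclei again stood furthest above it. An unnamed cluster of 43 nuclei held 1.32 (0.271 to 3.91).

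**Figure D3:**
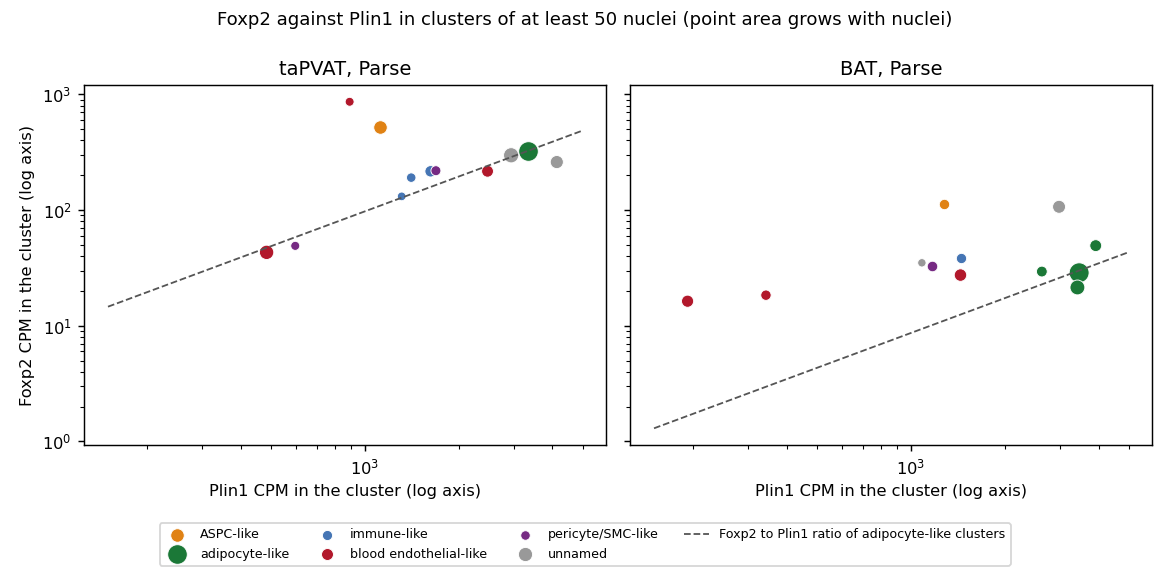
Foxp2 level against Plin1 level, both in CPM on log axes, in the clusters of at least 50 nuclei of taPVAT (left) and BAT (right); each point is 1 cluster, its area grows with its nuclei, and the dashed line is the ratio of the adipocyte-like clusters. In taPVAT most clusters lie near the line, at 9.74 Foxp2 UMIs per 100 Plin1 UMIs, and the ASPC-like cluster (46.9) and an endothelial cluster with lymphatic markers (96.6) lie above it, while in BAT most clusters of other classes lie above it.

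Within single nuclei, Foxp2 went with Prox1 in taPVAT and in the 10x Genomics library. Of 47 Prox1-positive taPVAT nuclei, 33 had Foxp2 (70.2%, 55.1 to 82.7), against 38.0% of Prox1-negative nuclei weighted to the same depths. In the 10x Genomics library 69 of 152 (45.4%, 37.3 to 53.7) did, against 5.47%. In BAT only 3 of 28 Prox1-positive nuclei (10.7%, 2.27 to 28.2) had Foxp2, against 7.57% of the depth-matched rest, and in the libraries labelled mesPVAT and RP fat it was 5 of 42 and 10 of 61, against 13.9% and 10.1%. In cow WAT 40 of 108 (37.0%, 27.9 to 46.9) did, against 28.8%. Prox1 thus marked Foxp2-carrying nuclei in 2 libraries and did not do so detectably in the other rat libraries. As a level, Foxp2 stood at 1012 CPM in Prox1-positive and 269 CPM in Prox1-negative taPVAT nuclei, a ratio of 3.76 (3.13 to 4.48). In BAT it stood at 36.1 and 38.5 CPM, and in the 10x Genomics library at 3221 and 266 CPM, a ratio of 12.1 (10.0 to 14.6). Read the other way, 33 of 782 Foxp2-positive taPVAT nuclei (4.22%) had Prox1, and the Prox1-positive nuclei held 9.29% of the Foxp2 UMIs of taPVAT, 36.8% of those of the 10x Genomics library and 1.24% of those of BAT.

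In taPVAT, Mmrn1 and Reln differed more between Prox1-positive and Prox1-negative nuclei than Foxp2 did. Mmrn1 was found in 11 of 47 Prox1-positive taPVAT nuclei (23.4%), against 0.334% of depth-matched negative nuclei, and these nuclei held 59.3% of its UMIs, at 118 CPM against 2.22 CPM. Reln was found in 13 of the 47 (27.7% against 4.21%), at 207 CPM against 25.4 CPM, and Pde1c in 11 (23.4%, 12.3 to 38.0, against 11.3%). Foxp1 was in 24 of 47 (51.1% against 49.5%) and Pdpn in 2, so these last did not mark the same nuclei. In the 10x Genomics library Pde1c was the member most concentrated in Prox1-positive nuclei, which held 68.1% of its UMIs, at 1127 CPM against 25.4 CPM. In BAT, Prox1-positive nuclei held Mmrn1 in 1 and Pdpn in 0 of 28 nuclei. Reln was found in 4 of the 28 (14.3%, 4.03 to 32.7, against 4.385%). Its level there was 96.4 CPM on 8 UMIs, against 18.4 CPM, a ratio of 5.23 (2.20 to 10.65).

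**Figure D4:**
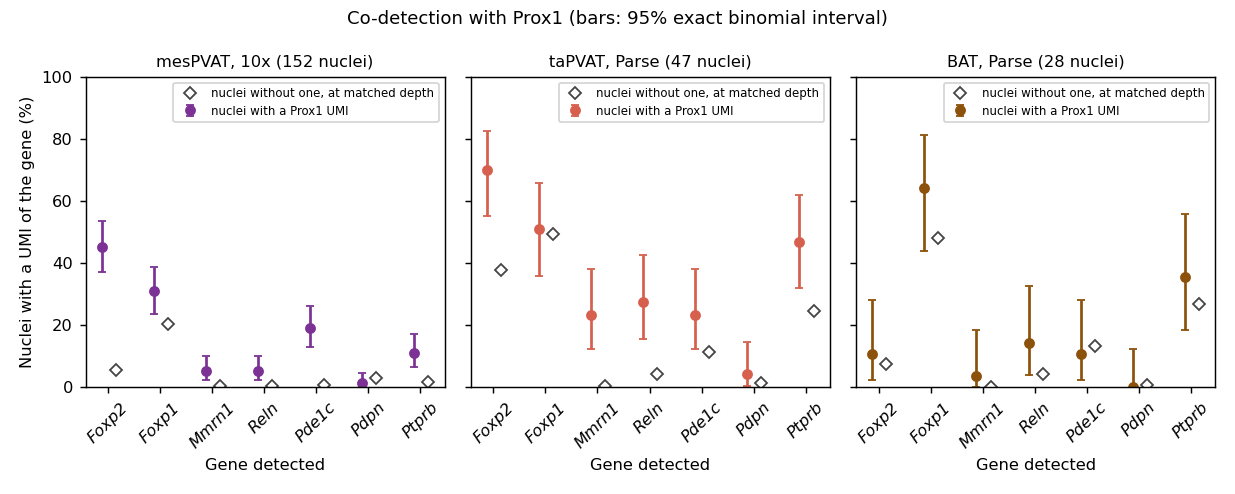
Share of nuclei with at least 1 UMI of each gene, in percent, in the 10x Genomics mesPVAT library, taPVAT and BAT: filled points are Prox1-positive nuclei with exact 95% binomial intervals, and open diamonds are Prox1-negative nuclei weighted to the same depths. Foxp2, Mmrn1 and Reln stand above the Prox1-negative share in taPVAT, while Foxp1 (51.1% against 49.5%) does not.

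Of the 46 clustered Prox1-positive taPVAT nuclei, 24 lay in blood endothelial-like clusters at resolution 1.0, and at resolution 2.0 18 lay in the lymphatic-like cluster. Of the 22 with at least 2 Prox1 UMIs, 14 lay there. In BAT, 12 of 26 lay in adipocyte-like and 4 in blood endothelial-like clusters at resolution 1.0. At resolution 2.0 these were 2 and 8, and 14 lay in unnamed clusters. Only 3 BAT nuclei had 2 or more Prox1 UMIs, so Prox1 in BAT was mainly single UMIs, in classes that changed with the resolution. In the 10x Genomics library 92 of 135 lay in the lymphatic-like cluster.

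Ptprb was not more frequent in Foxp2-positive nuclei as a whole in the brown depots. It was found in 152 of 782 Foxp2-positive taPVAT nuclei (19.4%, 16.7 to 22.4), against 29.6% of Foxp2-negative nuclei weighted to the same depths, and in 52 of 193 in BAT (26.9%, 20.8 to 33.8), against 31.1%. In the 10x Genomics library, where Foxp2 lay mostly in lymphatic-like nuclei, 19 of 261 (7.28%, 4.44 to 11.1) had Ptprb, against 1.68%. In the library labelled mesPVAT, that labelled RP fat and cow WAT the shares were 17.2% against 18.5%, 7.27% against 9.66% and 40.1% against 41.7%. Across classes of taPVAT, 69.2% of Foxp2-positive blood endothelial-like nuclei had Ptprb, against 62.3% of the Foxp2-negative nuclei of that class. The shares were 8 of 18 against 57.1% in lymphatic-like nuclei, 16.2% (10.1 to 24.2) against 7.97% in ASPC-like and 2.96% (0.813 to 7.41) against 1.05% in adipocyte-like nuclei, without matching for depth. Most Foxp2-positive taPVAT nuclei therefore carried no read of this endothelial gene.

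The genes most like each member were taken as those with the highest ratio of level in positive over negative nuclei. For Prox1 in taPVAT the 9 named genes among the first 10 were Tgfa (22.7-fold), Sema3d (19.6), Flt4 (18.6), Slc4a10 (15.3), Fam174b (14.5), Pkhd1l1 (12.2), Glis3 (12.1), Myzap (11.5) and Sema3a (11.3), of 1458 genes considered. Sema3d, Flt4, Pkhd1l1 and Sema3a were also on the list of lymphatic markers. For Prox1 in BAT the first 10 were Pcdh15 (5.53), Cntnap2 (4.30), Dpp10, Tenm2, Rbfox1, Vav3, Macrod2, Sdk1, Bbs9 and Cdk14, of 653 genes, and none was a lymphatic marker. These BAT genes had a median length of 1318 kb, against 123 kb for all the genes considered, where the taPVAT genes had 175 kb against 104 kb. For Foxp2 the ratios were smaller. In taPVAT the genes included Zfp418 (2.01), Glis3 (1.92), Cacna2d3 (1.89), Osbpl6, Tomm40, Aldh1l1 and Galk1l1, of 4752 genes, and in BAT C7 (3.07), Fgf14, Pcsk2, Cntn6, Cd28, Fbn1 (2.25) and Fzd1, of 5482. Glis3 was thus near both Prox1 and Foxp2 in taPVAT. No cell type is read from the mixed BAT list, which holds C7, a complement component, and Fbn1, the matrix protein fibrillin 1. The named BAT genes had a median length of 197 kb, against 54.2 kb for all the genes considered, and the taPVAT genes 84.8 kb against 56 kb.

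Across the 29 clusters of taPVAT and BAT, the genes with a symbol and the highest Pearson correlation with Foxp2, of 10398, were Pcsk6 (r = 0.76), Cacna2d3 (0.73), C4b (0.72), Htra3 (0.69) and Adtrp (0.67). Among the members, r was 0.47 for Prox1, 0.39 for Reln, 0.24 for Foxp1 and −0.34 for Pde1c. Pcsk6 (122 against 51.3 CPM), Cacna2d3 (190 against 97.7), C4b (783 against 363), Htra3 (55.1 against 18.4) and Adtrp (62.9 against 27.7) were all higher in taPVAT than in BAT. Foxp2 was selected on that same difference, so these correlations can follow the library alone. The points share their library, their depth and the clustering, and the values describe these clusters only.

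Genes that act with the members in lymphatic vessels were read from a list of 37, of which 35 were in the files and 29 had at least 20 UMIs. Of these, 3 were at least 2-fold higher in taPVAT than in BAT and 0 were at least 2-fold lower, where 5.97% and 1.10% of all genes did so, and their median ratio was 1.14 against 1.08 over all genes. Ccbe1, which encodes a protein needed to process VEGFC, had a ratio of 2.80 (2.26 to 3.50), with 276 against 122 UMIs. Adm, the peptide adrenomedullin, had 2.07 on 15 against 9 UMIs, with an interval of 0.847 to 5.35. None of the 8 receptors passed. Nrp2, a VEGFC co-receptor, stood at 1.02, the VEGF receptor gene Kdr at 0.827, the angiopoietin receptor genes Tek and Tie1 at 0.841 and 0.731, the ligand Angpt1 at 0.873, the valve transcription factor Nfatc1 at 0.917, the integrin gene Itga9 at 1.72 (1.45 to 2.04) and Pkhd1l1 at 1.61 (1.38 to 1.88). The reelin receptor genes Vldlr and Lrp8 had ratios of 1.02 and 1.79. At least 2-fold higher were 2 of 7 ligands and processing genes, 0 of 4 surface and valve genes and 0 of 3 partners of Reln and Pdpn. Tbx1, Foxp3, Ccl21, Ackr4, Cldn11 and Clec1b had too few UMIs.

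The remaining members each had their own place. Pde1c was endothelial in BAT, at 389 CPM in blood endothelial-like nuclei and 746 CPM (653 to 849) in 1 of these clusters, of 200 nuclei, against 30.5 CPM in adipocyte-like nuclei. Of the 103 Pde1c UMIs of these adipocyte-like nuclei, 47 lay in 1 cluster of 143 nuclei, in which 56.6% had Ptprb. Blood endothelial-like nuclei of taPVAT stood at 185 CPM of Pde1c. The Pde1c ratio was below 1 in each of the 6 classes, unnamed nuclei included, from 0.378 to 0.675. The intervals of ASPC-like (0.358 to 1.15) and pericyte or smooth muscle-like nuclei (0.363 to 1.24) included 1. In cow WAT, PDE1C was instead highest in a pericyte or smooth muscle-like cluster of 186 nuclei, at 2222 CPM (2118 to 2330), and that class held 61.3% of its UMIs. Reln in taPVAT was 2.71-fold (1.55 to 4.96) higher than in BAT among blood endothelial-like nuclei, which held 24 of the 46 clustered Prox1-positive nuclei there (15 against 18 UMIs, at 17.7 CPM in both, without the cluster with lymphatic markers), and 0.546 (0.256 to 1.06) as high in adipocyte-like nuclei. Pdpn, whose protein is a usual lymphatic surface marker, was found outside lymphatic-like nuclei in every library where these were named: it stood at 74.6 CPM in an immune-like cluster of 168 taPVAT nuclei, where the 0 UMIs of the lymphatic-like nuclei allow a similar level, in unnamed clusters and immune-like nuclei of the 10x Genomics library, at 303 and 307 CPM, and in an ASPC-like cluster of cow WAT, at 34.9 CPM. One of the unnamed 10x Genomics clusters was led by the mesothelial gene Msln.

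In the Parse libraries labelled mesPVAT and RP fat no cluster was lymphatic-like at resolution 1.0, and the members were spread. Foxp2 ran from 125 to 330 CPM over the 11 clusters of 50 or more nuclei of the first and from 150 to 362 CPM over the 17 of the second, whereas it ran from 43.1 to 863 CPM over the 12 of taPVAT and from 0 to 3288 CPM over the 10 of the 10x Genomics library. Reln ran from 75.3 to 236 CPM and from 118 to 459 CPM over the clusters of these libraries, and Pde1c from 121 to 401 and from 91.7 to 544 CPM. The 2 libraries labelled mesPVAT thus differed in where Foxp2 lay. The 10x Genomics nuclei were isolated by an earlier protocol and sorted on DAPI, per the supplementary methods, and the isolation, the kit, the batch, the sample and a possible exchange of the Parse labels cannot be told apart.

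In cow WAT a lymphatic-like cluster of 13 nuclei led by PKHD1L1, TBX1, PRKCZ, SCN3A and FLT4 carried RELN at 2277 CPM, MMRN1 at 976 CPM (672 to 1370) and PROX1 at 798 CPM (526 to 1162), with 10 of 13 nuclei positive for PROX1. FOXP2 gave only 4 UMIs in it, 118 CPM (32.2 to 303), and FOXP1 473 CPM. The markers PKHD1L1, FLT4, TBX1, NFATC1, ITGA9 and KLHL4 were higher in it than in blood endothelial-like nuclei. SEMA3A and SEMA3D gave 4 and 6 UMIs, LYVE1 gave 3, and STAB2 and CCL21 gave 0. The cow FOXP2 reads were highest in an unnamed cluster of 160 nuclei led by SRCIN1, ADAM23, TMEM178B, RASGEF1C and SPP1, at 133 CPM (98.5 to 175), and stood at 81.9 CPM in ASPC-like, 70.2 CPM in immune-like, 34.2 CPM in blood endothelial-like and 22.7 CPM in adipocyte-like nuclei. Foxp2 and Prox1 were thus both far above blood endothelial-like nuclei in the lymphatic-like nuclei of the rat libraries that had them, whereas in cow WAT this held for PROX1 and the interval for FOXP2 reached down to the blood endothelial-like level. ASPC-like nuclei were above adipocyte-like nuclei in Foxp2 in the 10x Genomics library, taPVAT, BAT and cow WAT alike.

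**Figure D5:**
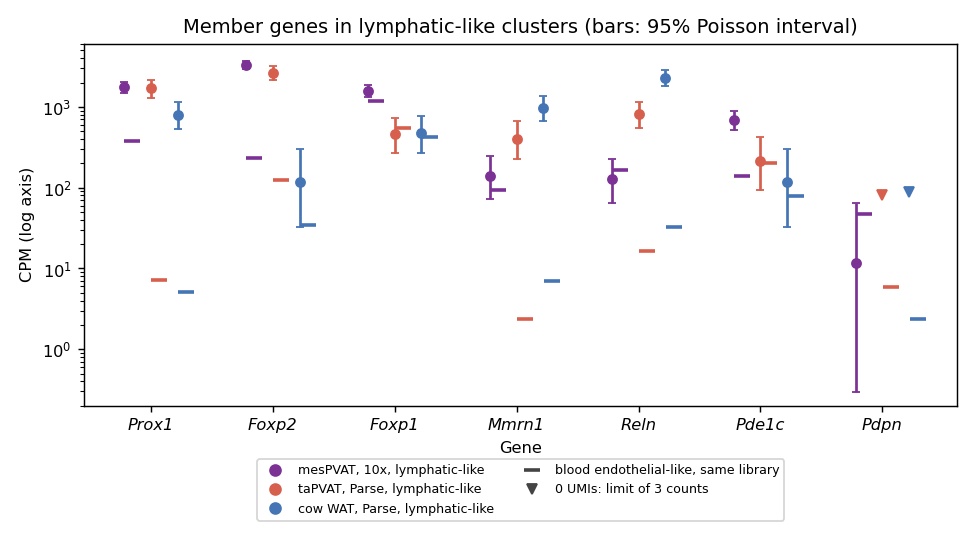
Levels of the 7 members, in CPM on a log axis, in the lymphatic-like clusters of the 3 libraries in which one was named (points with exact 95% Poisson intervals; taPVAT at resolution 2.0) and in blood endothelial-like nuclei of the same library (dashes); triangles mark 0 UMIs, at the limit of 3 counts. Prox1 is higher in lymphatic-like nuclei in all 3, and Foxp2 is so in the 10x Genomics library (3288 against 234 CPM) and taPVAT (2632 against 125 CPM), while its interval in cow WAT reaches the blood endothelial-like level.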

How the data were processed

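The authors deposited UMI counts per gene and barcode, not normalized: for the Parse libraries the filtered matrices of split-pipe 1.5.1 on GRCr8 or ARS-UCD1.3, and for the 10x Genomics library the cell barcodes of Cell Ranger 7.1.0 (genome Rnor_6.0 per the supplementary methods). Samples were grouped by their labels, with 1 library per condition, so no test was run. Levels were summed UMI counts scaled to CPM, over all deposited nuclei. Total UMI counts ranged from 845316 to 16827260.

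For classes, nuclei with 100 to 15000 UMIs, up to 4500 genes, up to 3% mitochondrial UMIs and log UMIs and log genes no further than 5 median absolute deviations from the library's median were clustered per library without the members: scaling to 1000 UMIs, 2000 variable genes, 30 principal components, 15 neighbours, Leiden resolution 1.0, seed 20. Clusters were named by class when that class led in raised markers (at least 2-fold over the median of the other clusters, in at least 5% of nuclei, with 10 or more UMIs), if at least 3 and more than 0.333 of its markers were raised and no unrelated class had more than 1 for every 2 of its own; lymphatic-like was chosen over blood endothelial-like where lymphatic markers outnumbered the other's among the 10 leading genes. This rule was settled after the clusters had been seen. No doublet caller was applied, and doublets remain. Shares in negative nuclei were weighted to the 5 depth groups of the positive nuclei. Called means a CPM ratio of at least 2 among genes with 20 or more UMIs in both libraries together.

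The members, marker lists and pathway list were chosen with earlier results of these data known. Named genes were the members and Ptprb, the 8 pathway genes with the most UMIs and every one past a ratio of 2, the 10 genes with the largest ratio between positive and negative nuclei (in at least 10% of positive nuclei, 20 or more UMIs there) and the 5 with the highest correlation over clusters (log2 of CPM + 10). Vldlr, Lrp8 and the cluster leading genes were named after their values were seen. Alternatives were the nuclei summed, scaling, thinning, sublibraries and resolution. Leaving out nuclei with 2 or more lymphatic genes, pairing single barcoding wells, leaving out blood endothelial-like clusters with 3 or more raised lymphatic markers, and other resolutions for the 10x Genomics library were added after the data had been seen. Interval code was tested on simulated data. Tools were scanpy 1.11.5, anndata 0.12.19, igraph 0.11.9, pandas 2.3.3, scipy 1.17.1, numpy 2.4.6 and matplotlib 3.10.9 under Python 3.11.15. Promoter sequences are from RefSeq (GRCr8). Some items that the naming rule picked are not reported here.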

Additional observations from a re-analysis of the deposited data

How the results depend on the processing

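The taPVAT over BAT ratio of Foxp2 stayed above 5 in each alternative: it was 5.26 as a mean over nuclei and 6.30 and 9.96 for the pairs of barcoding wells with the lowest and highest ratio, and stayed within 6.56 to 8.64 in the others, 6.93 without nuclei that had 2 or more lymphatic genes included. The Prox1 ratio moved to 7.06 in sublibrary 1 alone (2.81 in sublibrary 2) and to 1.59 without nuclei with 2 or more lymphatic genes. Prox1 was itself among the genes that picked those nuclei, so this last change is in part built in. The share of Foxp2-positive nuclei with Ptprb was 22.5% in taPVAT and 34.4% in BAT with 2 or more Foxp2 UMIs, 4.38% and 3.45% after thinning to 500 UMIs, and 32.0% and 38.3% with any of 4 endothelial genes. The share of Foxp2 UMIs in lymphatic-like nuclei of taPVAT, 0 at resolution 1.0, was 6.76% at 0.5, 6.90% at 2.0 and 4.23% with nuclei placed singly. In the 10x Genomics library that share was 77.7% at 1.0, 76.9% at 2.0 and 0 at 0.5, where lymphatic-like and blood endothelial-like nuclei were 1 cluster. Among clustered nuclei, those with 2 or more lymphatic genes held 22.7% of Foxp2 UMIs in taPVAT and 14.95% in BAT. Over all deposited nuclei, those with 2 or more lymphatic genes held 24.6% in taPVAT and 19.75% in BAT. Such nuclei were 9.16% and 10.0% of all nuclei and were deep, with medians of 2426 and 2921 UMIs. In BAT their Foxp2 level was 38.8 CPM, against 38.4 CPM in the rest, so these shares are not read as lymphatic. Of 42 member levels, 19 moved past their interval as means over nuclei, 10 with 500 or more UMIs per nucleus, 5 under the study's limits and 10 without the gene with the most UMIs. Of 42 positive shares, 42 moved when 2 UMIs were required and 35 after thinning to 200 UMIs. No lymphatic-like cluster was named at resolution 1.0 in the shallow Parse libraries labelled mesPVAT and RP fat. Whether depth limited the naming was not tested. The 10x Genomics library was shallower, with a median of 161 UMIs per nucleus against 346 and 213, and had such a cluster. No paired analysis was possible because each condition was 1 library and no result came from a test.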
